A study of Mus musculus with 93 samples.

Results

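RNA sequencing libraries of posterior eyecups, 8 from Efemp1ki/ki and 6 from Wt mice, all female, untreated and 3 months old, were compared. The series describes the posterior eyecup as the eye from which lens and retina were removed. These 14 libraries were taken by tissue, genotype and age in their titles, and were 14 of 93 libraries in the series. Efemp1ki/ki mice are homozygous for a knock-in allele of Efemp1, a model of Doyne honeycomb retinal dystrophy. The labels give no strain. Nothing in them ties a library to 1 mouse, and the p-values therefore reflect library-to-library spread that may be technical. The other 31 eyecup libraries, of mice aged 9 and 17 months, shared the choice of genes tested, the scaling and the estimate of spread. A further 16 neural retina libraries of 3 months served for comparison.

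Efemp1 encodes fibulin-3, a secreted glycoprotein of the extracellular matrix that is made by the retinal pigment epithelium and by fibroblasts. In Doyne honeycomb retinal dystrophy a missense change makes the protein fold and leave the cell poorly, and deposits form between the pigment epithelium and Bruch's membrane. Complement factor B, encoded by Cfb, is a component of the alternative complement pathway, which has been linked to such deposits.

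Totals were 16027574 to 27723647 estimated counts in the 14 libraries. Levels are given in CPM, counts scaled to the library total after normalisation by the trimmed mean of M values (TMM). The libraries held RNA of several tissues. Summed rod photoreceptor genes (16) ranged from 1016 to 13960 CPM, skeletal muscle genes (18) from 6467 to 31500 CPM, corneal and conjunctival genes (15) from 39640 to 60480 CPM and retinal pigment epithelium genes (16) from 1609 to 3090 CPM. In tissue of this kind, fewer cells of a type and less RNA per cell cannot be told apart.

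Efemp1 itself did not pass the test. Its lowest, median and highest levels were 193, 255 and 305 CPM in wild type and 138, 249 and 280 CPM in knock-in (log2 fold change -0.12 ± 0.15 SE, adjusted p = 0.788 by edgeR's quasi-likelihood test with Benjamini-Hochberg adjustment). A gene count cannot show a missense allele, so this value checks nothing of the genotype. The direction changed sign in 5 alternative analyses. Cfb ranged from 9.09 to 11.8 CPM in wild type and from 7.78 to 15.1 CPM in knock-in (log2 fold change 0.08 ± 0.23, adjusted p = 0.908). Its sign was opposite after the GC correction described next (-0.04).

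The libraries differed by genotype in how their counts followed base composition. The GC trend of a library is the slope of its log2 CPM, relative to each gene's mean over the 14 libraries, on the GC content of the gene's longest transcript, per 10 percentage points. Wild-type libraries had slopes from -0.20 to -0.13 (mean -0.17 ± 0.02 SD, n = 6). Knock-in libraries had slopes from -0.06 to 0.71 (mean 0.13 ± 0.27 SD, n = 8). The groups did not overlap, and the difference was 0.30 (2-sided exact permutation test, p = 0.00366, adjusted p = 0.0110 over 6 library comparisons). Knock-in libraries 2, 3 and 4 had the steepest slopes, 0.13, 0.34 and 0.71, and the other 5 knock-in libraries lay between -0.06 and 0.00. With libraries 3 and 4 left out the difference was 0.17 (exact permutation test, p = 0.00216, adjusted p = 0.0110). These libraries were chosen for their slopes, and leaving out the highest slopes could not make the groups overlap. This p-value is therefore not a separate test. It is still counted among the 6 library comparisons, and adjusted p-values such as that of the main difference are lower for it.

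The same comparison in other eyecups gave a difference of 0.03 at 9 months (exact permutation test, p = 0.567, adjusted p = 0.680, n = 8 and 8) and 0.13 at 17 months (exact permutation test, p = 0.0143, adjusted p = 0.0286, n = 8 wild type and 7 knock-in). The share of counts from mitochondrially encoded genes, whose transcripts are AT-rich, moved with the trend. It was 5.25% to 9.28% in wild type and 1.04% to 8.50% in knock-in, with the lowest values in knock-in libraries 4 (1.04%), 3 (1.96%) and 2 (2.58%). The mean difference was -2.72 percentage points (exact permutation test, p = 0.0423, adjusted p = 0.0634), and the groups overlapped. Library totals did not separate the genotypes (exact permutation test, p = 0.884, adjusted p = 0.884).

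**Figure D1:**
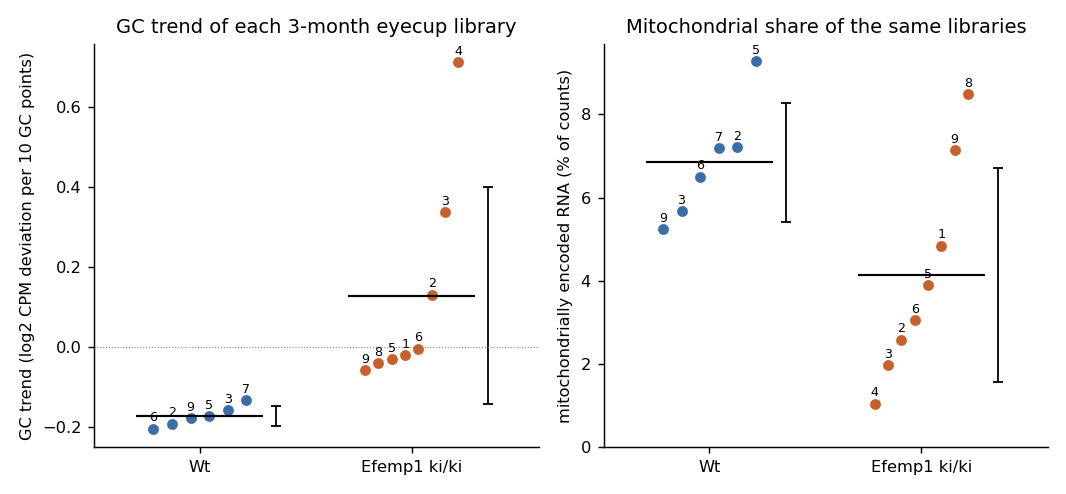
GC trend (left, log2 CPM deviation per 10 percentage points of GC) and mitochondrially encoded share of counts (right, percent) of each 3-month eyecup library, 6 wild type and 8 knock-in. Points are libraries with their replicate numbers, lines are group means and bars are SD; every knock-in library lies above every wild-type library on the left, and knock-in libraries 4, 3 and 2 are the lowest on the right.

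Of 18003 genes tested, 553 (3.07%) passed an adjusted p under 0.05 in edgeR, 84 higher (0.467%) and 469 lower (2.61%) in the knock-in. With only the 2 groups fitted 101 genes passed, 86 of them among the 553. The lower genes changed more. Their median size was 0.56 on the log2 scale, 284 of them changed by at least 0.5 and 51 by at least 1. The median size of the higher genes was 0.30, and 8 changed by at least 0.5. In 288 of the lower genes (61.4%) and 14 of the higher genes (16.7%) the levels of the 2 groups did not overlap. Over all genes tested the groups did not overlap in 2.33% with the knock-in lower and 0.278% with the knock-in higher.

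These counts depended on the libraries included. Without wild-type library 2, 3, 5, 6, 7 or 9 they fell to 217, 297, 293, 208, 387 and 286 genes. Without knock-in library 2, 3 or 4 they fell to 270, 153 and 199. Without knock-in library 5 or 8 the count was 854 or 855. With knock-in libraries 3 and 4 both left out 14 genes passed, 1 higher and 13 lower, and without 2, 3 and 4 edgeR called 0 genes (941 at an unadjusted p under 0.05). The last 2 analyses were added after the GC trend was seen, and they also hold fewer libraries.

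The direction of change followed the GC content of the transcript. The median transcript GC content was 40.03% in the lower genes and 56.0% in the higher genes. When genes were split into 5 equal groups by GC content, 419 of the 469 lower genes were in the lowest group (28.6% to 43.8% GC), 44 in the next, 5 in the middle group and 0 above it, and 1 had no GC value. The higher genes ran the other way, with 0, 2, 8, 26 and 48 from the lowest to the highest group. The median log2 fold change of all genes went from -0.30 in the lowest group to 0.20 in the highest. Across 17960 genes the Spearman correlation of fold change with GC content was 0.698, as a description of genes that share these libraries.

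Short stretches of coding sequence illustrate the transcript GC content of genes in each direction. They were picked to match it, so they add no evidence and need not be typical of the coding sequence. Each is a window of 60 bases of the coding sequence of the longest coding transcript in GENCODE M21 (GRCm38), the first whose GC content is closest to that of the gene's longest transcript. Capitals mark G and C. The first 3 belong to genes that fell: Vbp1 encodes a prefoldin subunit that passes unfolded actin and tubulin to the chaperonin, Gulp1 an adaptor for the engulfment of dying cells, and Zfp943 a zinc finger protein.
Vbp1: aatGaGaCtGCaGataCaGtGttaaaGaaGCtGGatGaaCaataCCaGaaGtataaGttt
Gulp1: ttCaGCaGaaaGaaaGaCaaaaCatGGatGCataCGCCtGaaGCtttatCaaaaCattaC
Zfp943: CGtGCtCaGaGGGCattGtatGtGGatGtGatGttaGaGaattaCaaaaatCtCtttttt

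The other 3 belong to genes that rose: Nr4a1 encodes an orphan nuclear receptor induced within minutes of a stimulus, Papln the matrix glycoprotein papilin, and Arl10 a small GTPase of the ARF-like family.
Nr4a1: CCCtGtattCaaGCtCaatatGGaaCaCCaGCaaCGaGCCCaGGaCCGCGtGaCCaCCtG
Papln: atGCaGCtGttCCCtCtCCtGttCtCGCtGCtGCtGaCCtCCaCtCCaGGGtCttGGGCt
Arl10: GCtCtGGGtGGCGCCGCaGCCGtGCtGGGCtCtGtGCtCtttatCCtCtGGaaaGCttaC
G and C make up 21, 22 and 22 of the 60 bases in the first 3 and 34, 36 and 37 in these.

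The difference in composition was present in coding sequence and in 3′ untranslated regions. Coding sequence had a median GC content of 44.5% in the lower genes (424 with a coding transcript), 57.8% in the higher genes (80) and 53.3% in all tested genes (15697). At the third base of codons the medians were 43.1%, 66.5% and 61.2%. The 3′ untranslated regions had medians of 35.9%, 51.7% and 44.9%, and their median length was 2538 bases in the lower genes, 919 in the higher genes and 1192 in all. Promoters did not follow this order. The 300 bases around the gene start in RefSeq (GRCm38.p6) had a median GC content of 63.0% in the lower genes (321 matched by symbol), 59.5% in the higher genes (62) and 60.3% in all (11914).

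The comparison was repeated with an offset for each library that removes a smooth dependence on GC content. With these offsets 42 genes passed (0.233%), 31 lower (0.172%) and 11 higher (0.0611%). Of the 553 genes, 31 passed again in the same direction, 30 lower and 1 higher. The median log2 fold change of each of the 5 GC groups then lay between -0.02 and -0.01, and the correlation with GC content was 0.00. The count of 42 depended on single libraries. It was 4, 7, 4, 6, 19 and 15 without wild-type library 2, 3, 5, 6, 7 or 9, and 7, 4 and 16 without knock-in library 2, 3 or 4. It was 89, 81, 68 and 76 without knock-in library 1, 5, 8 or 9, and 2 with knock-in libraries 3 and 4 both left out. Offsets of this kind also remove any change of expression that itself follows GC content, and the genotype and the GC trend of these libraries cannot be told apart.

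**Figure D2:**
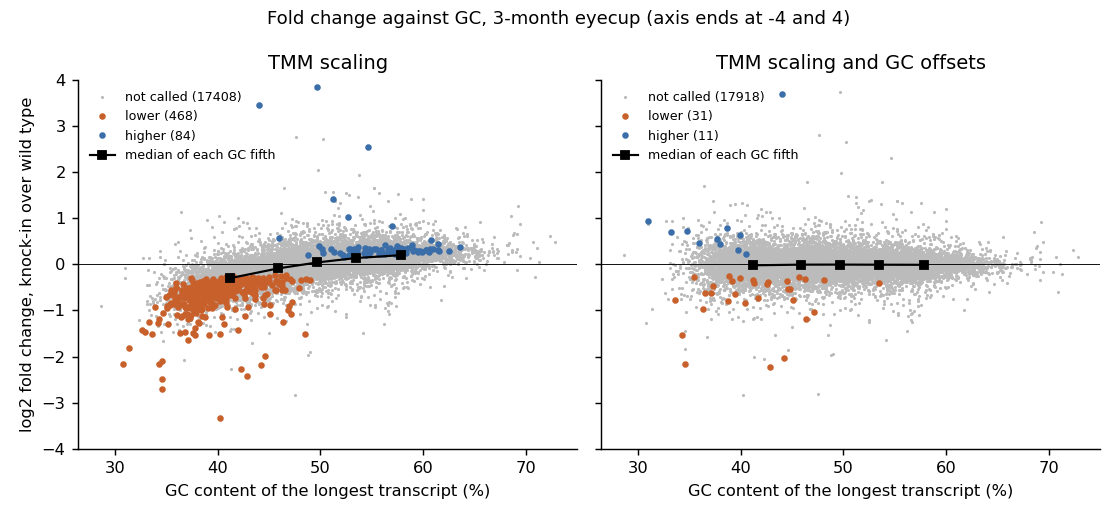
Log2 fold change of each gene, knock-in over wild type, against the GC content of its longest transcript (percent), with TMM scaling alone (left) and with GC offsets (right). Grey points did not pass, orange points were lower and blue points higher at an adjusted p under 0.05, and the 1 lower gene without a GC value is not drawn. Squares are medians of the 5 GC groups, which rise from -0.30 to 0.20 on the left and lie between -0.02 and -0.01 on the right.

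Genes that passed with and without GC offsets included the leading decreases. Plagl1 (ENSMUSG00000019817.18, GRCm38 chromosome 10, 13060504 to 13131694) is an imprinted gene for a zinc finger transcription factor that restrains cell proliferation. Its lowest, median and highest levels were 14.0, 17.9 and 20.1 CPM in wild type and 5.28, 6.95 and 9.45 CPM in knock-in, so every knock-in library lay below every wild-type library. The log2 fold change was -1.25 ± 0.20 (SE, adjusted p = 0.00183, edgeR), -1.19 with GC offsets (adjusted p = 0.00154) and -1.17 without knock-in libraries 3 and 4 (adjusted p = 0.0252). Of the 31 tested imprinted genes, Plagl1 alone passed, a share close to the 3.07% over all genes, and the median of the list was -0.06 against 0.03 over all genes.

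Slc18a2 (ENSMUSG00000025094.7, chromosome 19, 59260878 to 59296012) encodes the vesicular monoamine transporter, which mast cells and monoamine neurons use to load their vesicles. It ran from 3.23 through 4.19 to 4.44 CPM in wild type and from 1.17 through 2.01 to 2.56 CPM in knock-in, again without overlap. It fell by 1.07 on the log2 scale (SE 0.18, adjusted p = 0.00201, edgeR) and by 1.04 with GC offsets (adjusted p = 0.00246). No other of the 8 tested mast cell genes passed. Their summed level was 154 to 220 CPM in wild type and 183 to 227 CPM in knock-in.

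Marcks (ENSMUSG00000069662.5, chromosome 10, 37133375 to 37138920) encodes a protein kinase C substrate that links actin to the plasma membrane. It ran from 134 to 164 CPM (median 155) in wild type and from 52.6 to 106 CPM (median 84.3) in knock-in. It fell by 0.89 on the log2 scale (SE 0.16, adjusted p = 0.00222, edgeR) and by 0.78 with GC offsets (adjusted p = 0.00739). Without knock-in libraries 3 and 4 the values for Slc18a2 and Marcks were -0.97 and -0.75, both with an adjusted p of 0.0347.

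Other genes that passed both ways have known roles in several compartments. Itgb8, the integrin subunit that activates latent TGF-beta, ran from 67.7 to 107 CPM in wild type and from 21.9 to 60.1 CPM in knock-in (log2 fold change -1.14, and -0.84 with GC offsets). Vma21, an assembly factor of the vacuolar proton pump, ran from 39.99 to 46.4 and from 12.2 to 30.1 CPM (-0.94 and -0.46). Tmem30a, a subunit of the lipid flippases, ran from 152 to 172 and from 51.9 to 127 CPM (-0.72 and -0.36). In these 3 genes the groups did not overlap. Their GC content was 37.3% (Vma21) to 40.4% (Itgb8). None of the 3 passed without knock-in libraries 3 and 4 (Itgb8 -0.93, Vma21 -0.75 and Tmem30a -0.52, adjusted p = 0.0698, 0.0607 and 0.0778).

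A pair of zinc transporters was among the genes that passed both ways. Slc39a10, an importer, ran from 34.2 to 40.5 CPM in wild type and from 13.6 to 31.8 CPM in knock-in (log2 fold change -0.49, and -0.37 with GC offsets). Slc30a1, an exporter, ran from 32.5 to 38.7 and from 21.1 to 32.7 CPM (-0.39 and -0.32), with a slight overlap. Spred1, an inhibitor of Ras signalling, fell by 0.63, and by 0.35 with GC offsets. Vbp1 fell by 0.85 and by 0.28, Rmi1, a partner of the RecQ helicases, by 0.64 and 0.31, and Zfp943 by 1.09 and 0.62. Each of these passed with an adjusted p between 0.0216 and 0.0419 after GC offsets. Uri1, a prefoldin-like protein, and Ccni, a cyclin, changed little with the offsets, from -0.37 to -0.28 and from -0.35 to -0.34. Without knock-in libraries 3 and 4, Vbp1, Rmi1 and Zfp943 passed (-0.65, -0.47 and -0.88, adjusted p = 0.0360, 0.0347 and 0.0477). Slc39a10 (-0.35), Slc30a1 (-0.29), Spred1 (-0.48), Uri1 (-0.27) and Ccni (-0.28) did not, with an adjusted p between 0.0778 and 0.125.

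Some leading decreases passed without GC offsets and not with them. Gulp1 ran from 8.26 to 11.9 CPM in wild type and from 3.52 to 6.00 CPM in knock-in (log2 fold change -1.14, adjusted p = 0.00201, edgeR), and had -0.54 with GC offsets (adjusted p = 0.282). Dfna5, the gene of gasdermin E, a protein that opens pores in dying cells, ran from 8.82 to 11.8 and from 3.98 to 7.28 CPM (-0.79, adjusted p = 0.00201), and had -0.36 with the offsets (adjusted p = 0.117). Neither pair of groups overlapped. Both genes still passed without knock-in libraries 3 and 4 (-1.04 and -0.68, adjusted p = 0.0347). The chromatin genes Cbx3, a heterochromatin protein, and Bmi1, a polycomb subunit, fell by 0.53 and 0.80, and had -0.08 and -0.47 with the offsets (adjusted p = 1.00 and 0.0605). Without knock-in libraries 3 and 4 they had -0.46 and -0.65 (adjusted p = 0.0607 and 0.0794). On the log2(normalized value + 1) scale, taken from the authors' normalized table under the name TPM, Cbx3 turned to 0.03.

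The single gene that rose both ways was Gm2223, a predicted gene on the X chromosome. Wild-type libraries held 0.397 to 0.893 CPM and knock-in libraries 0.838 to 16.3 CPM. Knock-in libraries 2, 3, 4, 5 and 6 were above 5 CPM, and 1, 8 and 9 were near wild type. The log2 fold change was 3.46 ± 0.56 (adjusted p = 0.00183, edgeR) and 3.69 with GC offsets. Reads of predicted genes can belong to related copies, so the source of these reads is uncertain. Gm5537 had a log2 fold change of 3.83, but it rested on knock-in library 4, at 37.2 CPM. Without that library the value was 1.08 (adjusted p = 0.431).

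**Figure D3:**
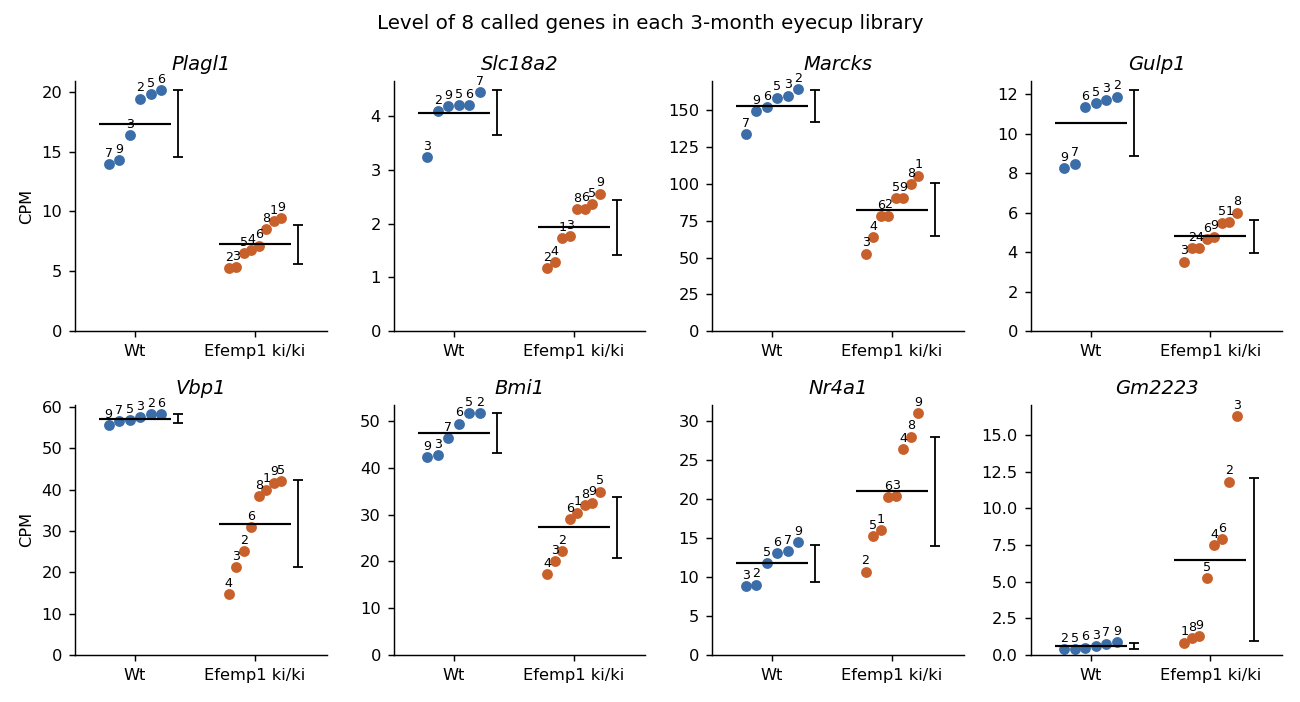
Level in CPM of 8 called genes in each 3-month eyecup library, 6 wild type (blue) and 8 knock-in (orange), with replicate numbers, group means (lines) and SD (bars). Plagl1, Slc18a2, Marcks, Gulp1, Vbp1 and Bmi1 are lower in every knock-in library than in any wild-type library, whereas Nr4a1 and Gm2223 are higher with overlapping ranges.

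Genes that rose were mostly modest in size. Nr4a1 ran from 8.87 through 12.5 to 14.5 CPM in wild type and from 10.7 through 20.3 to 31.0 CPM in knock-in (log2 fold change 0.83 ± 0.24, adjusted p = 0.0429, edgeR). Only knock-in library 2 lay within the wild-type range. Nr4a1 passed in 4 of 14 analyses that leave out 1 library, those without knock-in library 1, 2, 5 or 6. In the other 10 the value was 0.73 to 0.90, and with GC offsets it was 0.65 (adjusted p = 0.358). In the 3-month retinas, which are other libraries, it was also higher (0.82, adjusted p = 0.00160).

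Papln ran from 7.21 to 9.62 CPM in wild type and from 7.78 to 16.1 CPM in knock-in (log2 fold change 0.52 ± 0.14, adjusted p = 0.0355, edgeR). It lost the call without wild-type library 2, 5, 6, 7 or 9 or knock-in library 2, 3 or 4, with an adjusted p of up to 0.109. Rps23, a protein of the small ribosomal subunit, ran from 178 to 235 and from 201 to 391 CPM (0.56, adjusted p = 0.0369). Its change did not shrink with GC offsets (0.66, adjusted p = 0.0745), but its call was lost without wild-type library 2, 5, 6 or 7 or knock-in library 2, 3 or 4. Arl10 (0.44) and Hcfc1r1 (0.41), a regulator of the host cell factor, had 0.19 and 0.20 with the offsets. Arl10 lost its call without wild-type library 6 or 7 or knock-in library 3 or 4, and Hcfc1r1 kept it only without knock-in library 5, 6, 8 or 9.

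A total of 11 genes passed with GC offsets and not without them, 10 of them higher. All 10 had a GC content of 31.0% to 40.5%, and before the offsets their log2 fold changes ran from -0.17 (Btbd10) to 0.27 (Ccdc34), with none passing (the smallest adjusted p was 0.0762, for Dis3l2). Ufsp2, a protease that matures the ubiquitin-like modifier UFM1, was at 23.2 ± 3.10 CPM in wild type and 23.2 ± 3.46 CPM in knock-in (SD, n = 6 and 8), and its log2 fold change moved from 0.00 to 0.71. Ufl1, the ligase of the same modifier, moved from -0.10 to 0.23, and Cep44, a centriole protein, from -0.09 to 0.94.

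Across 45 lists of genes, 17 held at least 1 called gene. The small GTPases and their regulators held the most calls, 8 of 31 lower and 0 higher, against 2.61% lower over all genes. They included Rab2a, Rab8b and Rab18, which direct vesicle traffic, Rap2c, and Rabgap1l, Tbc1d19 and Tbc1d23, which were listed as Rab regulators. The log2 fold changes of these ran from -0.60 (Rap2c) to -0.35 (Tbc1d23). Rab18 ran from 109.6 through 114 to 128 CPM in wild type and from 48.03 through 84.1 to 104 CPM in knock-in, with no overlap.

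The median of the 31 GTPase genes was -0.33, their median GC content 44.4%, and their median with GC offsets -0.09, with 1 call left (Tbc1d19, adjusted p = 0.0338). Without knock-in libraries 3 and 4 the median was -0.18, and again Tbc1d19 was the 1 call. Rap2c (-0.06) and Rab2a (-0.23) did not pass with the offsets. On the log2(normalized value + 1) scale Rab18, Rab2a and Rap2c changed sign (0.05, 0.02 and 0.05). The calls of Rab2a and Tbc1d23 were lost without any one wild-type library or without knock-in library 2, 3 or 4. That of Rabgap1l was lost without wild-type library 6 or knock-in library 3 or 4. Those of Rab8b and Rap2c were lost without wild-type library 2, 3, 5, 6 or 9 or knock-in library 2, 3 or 4.

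Splicing, receptor, clock and protein folding genes gave smaller counts, to be read against 3.07% called over all genes, which the shares in the last 2 lists are close to. Of 30 spliceosome genes, the splicing regulators Srsf1 (-0.51) and Srsf7 (-0.43) fell and Sf3b2 (0.22), a subunit of the U2 particle, rose. None of the 3 passed with GC offsets (-0.17, -0.14 and 0.06), and Srsf1 and Srsf7 changed sign on the log2(normalized value + 1) scale (0.01 and 0.13). Of 29 TGF-beta and BMP genes, the receptors Acvr2a (-0.55) and Bmpr2 (-0.39) fell, and they had -0.21 and -0.10 with the offsets. The list's median was -0.16, and -0.11 with the offsets. Of 20 clock genes, Nr1d2, the repressor REV-ERB beta, fell by 0.46, and of 26 unfolded protein response genes the chaperone gene Canx fell by 0.31. With the offsets these had -0.21 and -0.06, and Canx turned to 0.01 on the log2(normalized value + 1) scale. Without knock-in libraries 3 and 4, none of these 7 genes passed. Leaving out wild-type library 2 or 6 or knock-in library 3 or 4 alone ended the calls of Srsf1, Sf3b2, Bmpr2, Nr1d2 and Canx, and those of the last 4 were also lost without wild-type library 9.

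Genes of inflammation and early response had medians of opposite sign. Their median GC contents, 46.3% and 54.4%, lay on either side of the 49.7% of all genes, and the part of base composition in them was not tested. Of 25 immediate early genes, 22 had a log2 fold change above 0, where 9937 of all 18003 genes had. The list's median was 0.31 (0.14 with GC offsets), and Nr4a1 alone passed. In this list and the next, 1 called gene is a share close to the 3.07% over all genes. Of 21 cytokine and acute inflammation genes, 15 were below 0, with a median of -0.34 (-0.26 with GC offsets). Cxcl1, a neutrophil chemokine, was the 1 that passed (-1.99 ± 0.58, adjusted p = 0.0493, edgeR). It rested on wild-type library 6, at 10.9 CPM where the next was 1.40 CPM, and without that library the value was -0.46 (adjusted p = 0.781). The call was also lost without wild-type library 2, 3 or 9 or knock-in library 1, 3, 4, 5, 6 or 9.

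No gene passed in 28 lists, in which 33 of 514 genes had an unadjusted p under 0.05 and DESeq2 called 6. Over all genes 3075 of 18003 (17.1%) had such a p and DESeq2 called 976. The 28 lists included the pigment epithelium (16 genes, median -0.04), melanin synthesis (13, -0.16), complement (27, 0.14), fibulins and elastic fibres (23, 0.13), fibrillar collagen (20, 0.10), endothelium (16, 0.03) and macrophages (15, 0.03). Of these 130 genes 8 had an unadjusted p under 0.05 and DESeq2 called 0. Rpe65, the isomerase of the visual cycle, ran from 118 to 164 CPM in wild type and from 53.9 to 177 CPM in knock-in (log2 fold change -0.49 ± 0.26, adjusted p = 0.333). All 9 tested genes of the mitochondrially encoded list were below 0, with a median of -0.75 and -0.36 with GC offsets. None of the 9 passed in edgeR, 6 had an unadjusted p under 0.05 and DESeq2 called 3. The mitochondrial chromosome held 11 tested genes, and 1 of the 11, outside the list, was called lower in edgeR. Composition covariates were the mean levels of the skeletal muscle, rod photoreceptor, and corneal and conjunctival genes. With them 7 of the 9 were called lower, with a median of -0.80, where 1435 of all 18003 genes were called lower. mt-Co3, a cytochrome oxidase subunit (-1.32, adjusted p = 0.0617), passed in 6 of 17 other settings and in 2 of 14 analyses that leave out 1 library. The part of the mitochondrially encoded genes in the other differences was not tested.

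**Figure D4:**
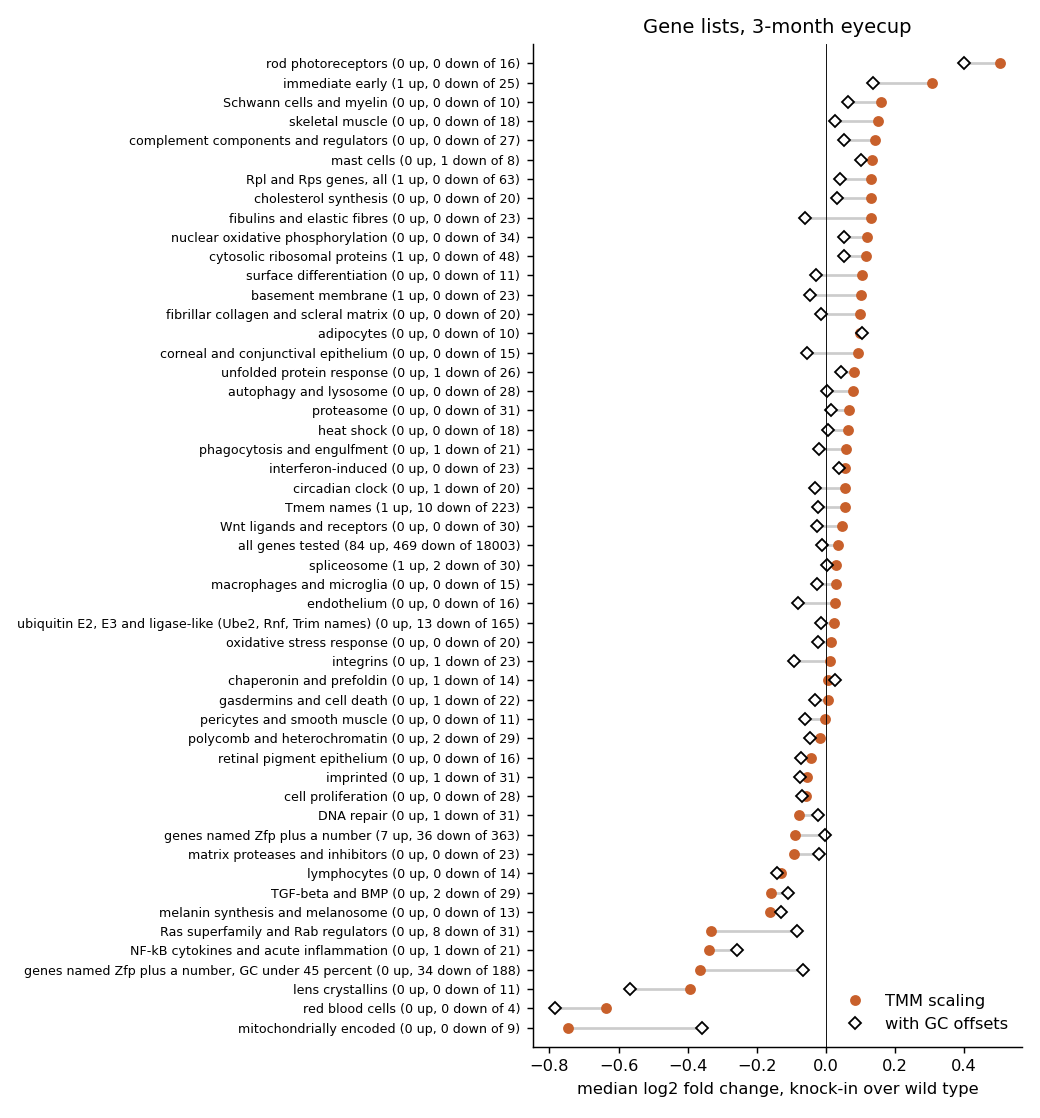
Median log2 fold change, knock-in over wild type, of each gene list in the 3-month eyecup, with TMM scaling (filled) and with GC offsets (open). Labels give the genes called higher (up) and lower (down) with TMM scaling and the number tested; 8 of 31 genes of the Ras superfamily and Rab regulators were lower, and their median moves from -0.33 to -0.09.

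Zinc finger genes with names of Zfp and a number were counted after their values were seen. Of 363, 36 were lower and 7 higher, against 2.61% and 0.467% over all genes. All but 2 of the lower ones were among the 188 with a GC content under 45%, where 34 were lower and 0 higher. In the lowest GC group of all genes 11.7% were lower. The median of those 188 was -0.36, and -0.07 with GC offsets, with 2 still called (Zfp367 and Zfp943). Zfp968 had a log2 fold change of -3.34 (adjusted p = 0.0377, edgeR), but wild-type library 2 held 0.0568 CPM, like the knock-in libraries (median 0.0641), where the next wild-type library held 2.18 CPM. Its call was lost without wild-type library 3, 5, 6, 7 or 9 or knock-in library 2, 4 or 6. Such genes lie in clusters of near-identical copies, so their reads may be divided between them.

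The called genes were spread over the chromosomes, with 3.07% called over all of them. On the X chromosome 43 of 604 tested genes were lower and 1 higher (7.28% called), and on chromosome 13 33 of 604 were lower and 2 higher (5.79%). On chromosome 11, which carries Efemp1, 14 of 1420 were lower and 6 higher (1.41%). The median GC content of tested genes was 45.5% on the X chromosome, 46.3% on chromosome 13 and 52.5% on chromosome 11. With GC offsets the calls on these chromosomes were 4, 4 and 1.

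The same genes were then examined in the older eyecups and in the 3-month retinas. The older eyecups shared with the 3-month calls the choice of genes tested, the scaling and the estimate of spread. They also entered the gene means behind the GC offsets, and the retinas were fitted apart. Of the 469 lower genes, 433 (92.3%) were also below 0 at 9 months and 461 (98.3%) at 17 months, against 56.7% and 44.9% of all genes. The lowest GC group held 419 of the 469 lower genes, and its uncalled genes were below 0 in 66.1% and 71.2%. These uncalled genes were not matched to the lower genes in GC content or expression level. With GC offsets the shares of the lower genes were 80.2% and 81.7%, against 57.1% and 46.7% of all genes. The uncalled genes of the lowest GC group then gave 53.7% and 45.1%. Without offsets the median log2 fold change of the lower genes was smaller, -0.09 at 9 months and -0.27 at 17 months against -0.56 at 3 months. In the 3-month retinas 57 of 459 (12.4%) were below 0, where all genes gave 51.4% and the uncalled low-GC genes 28.7%. The correlation of fold change with GC content was 0.151 at 9 months, 0.343 at 17 months and -0.349 in the retina.

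Of the 84 higher genes, 51 (60.7%) were above 0 at 9 months and 82 (97.6%) at 17 months, against 43.3% and 55.1% of all genes. With GC offsets the shares were 48.8% and 81.0%, against 42.9% and 53.3%. In the retina 27 of 83 (32.5%) were above 0, against 48.6% of all genes. Among the 30 genes that fell with and without GC offsets, 29 were below 0 at 9 months and 30 at 17 months. In the retina 5 of 29 (17.2%) were below 0 and 24 above. Plagl1 had log2 fold changes of -0.19 at 9 months and -0.85 at 17 months, Slc18a2 of -0.15 and -0.50, and Marcks of -0.23 and -0.63, with 0.15, 0.36 and 0.03 in the retina. None of these 9 values passed.

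Calls in the other comparisons were few in the eyecup, 1 at 9 months (0.00555%) and 11 at 17 months (0.0611%). Of the 11, 3 (27.3%) were among the 553 (0.542%) and had the same direction, Dfna5 (-0.63, adjusted p = 0.0450), Cdc14a and Ppp1r10. The test of a difference between ages called 0 genes for 3 against 9 months in edgeR (1265 at an unadjusted p under 0.05, 7.03%) and 0 for 3 against 17 months (560, 3.11%). For these contrasts limma voom called 1044 and 0 and DESeq2 0 and 1. In the 3-month retina 316 genes passed (1.83% of 17240). Of the 307 tested in both tissues, 2 (0.651%) were among the 553, Nr4a1 and Ankrd44, and 1 of them had the same direction.

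**Figure D5:**
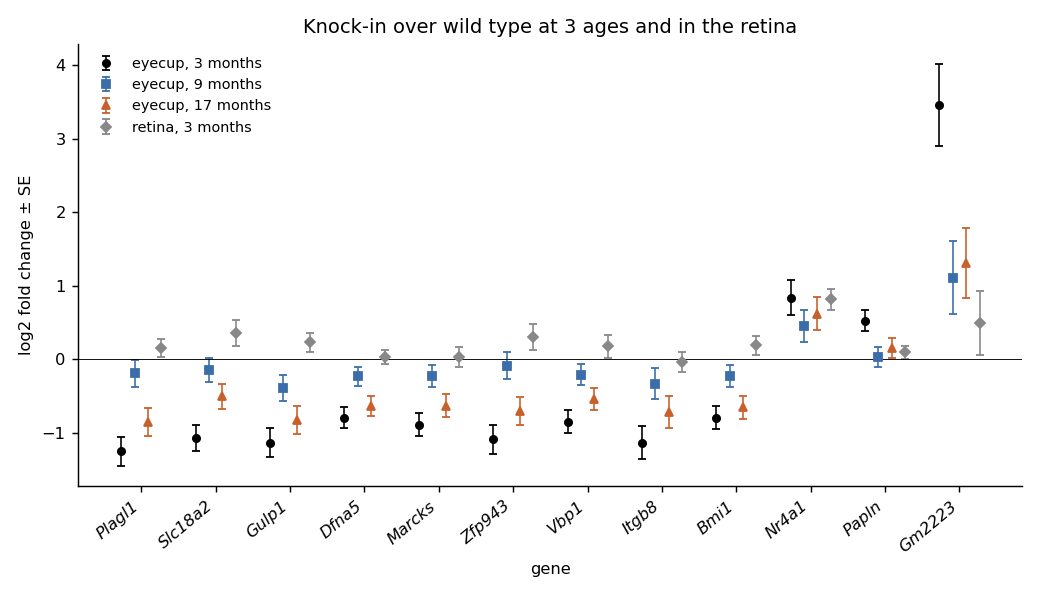
Log2 fold change with SE, knock-in over wild type, of 12 genes named in the text in eyecups of 3, 9 and 17 months and in retinas of 3 months. The 9 genes that fell at 3 months are below 0 at all 3 ages in the eyecup, and Nr4a1, Papln and Gm2223 are above 0 in all 4 comparisons.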

How the data were processed

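The labels' protocols describe column-purified RNA with DNase digestion and TruSeq Stranded mRNA libraries. The sources used here name no aligner, counter or strand setting, and the submitters' processing notes name GRCm38.p4. The authors deposited estimated counts per gene, which were rounded to whole numbers. The normalized table that the authors deposited under the name TPM was treated as a score, since its columns sum to more than TPM over all genes can, and used in 1 alternative, on log2(normalized value + 1). In each file 1 column matched no sample and was not used.

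Groups came from the sample titles. One edgeR 4.0.16 fit (R 4.3.3; filterByExpr, TMM, robust quasi-likelihood F test) covered the 6 eyecup groups, and another the 6 retina groups. A gene was called at an adjusted p under 0.05 (Benjamini-Hochberg). The common biological coefficient of variation was 0.309 in the eyecup. No libraries were copies: the closest pair had a chi-square of 8.61 per degree of freedom. GC content came from the longest GENCODE M21 transcript (99.6% of genes matched). GC offsets came from a natural spline with 5 degrees of freedom per library, fitted over 45 libraries on genes averaging log2 CPM of 1 or more. Alternatives used limma 3.58.1, DESeq2 1.42.0 and sva 3.50.0. The fits were tested on simulated counts.

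Named genes are Efemp1, Cfb, the 15 smallest p-values in each direction among called genes with a log2 change of at least 0.5 and an average log2 CPM of 0 or more (predicted names left out), the 5 largest changes in each direction, genes called with and without GC offsets, called members of each list (1 is not reported here), and tissue markers. Gm5537, Arl10, Hcfc1r1, the genes called only with GC offsets and those shared with other comparisons were named after their values were seen where that rule does not cover them. Members, lists and tests were chosen with earlier results of these data known. Reads are not independent molecules, and replicate spread entered every test.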

Additional observations from a re-analysis of the deposited data

Results flagged for a closer look

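Among 56 selected genes and 3 library measures, 13 groups had 1 library far from the rest by a gap test. Genes were examined on log2(CPM + 0.1) and library measures on their own scale. In this test chance marks about 1 group in 20 (118 groups were examined). Knock-in library 4 gave 7 of the 13. It was lowest of its group for Zfand6 (24.2 CPM, next 41.4), Slc39a10 (13.6, next 23.9), Pp2d1 (0, next 0.0978) and Efemp1 (138, next 223), and highest for Sf3b2 (304, next 244), Mepce (70.5, next 58.4) and Gm5537 (37.2, next 2.17). Knock-in library 3 was lowest for Znf41-ps (0.0409 CPM, next 0.391).

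Wild-type library 3 was lowest for Slc18a2 (3.24 CPM, next 4.09) and Tbc1d23 (35.7, next 39.2) and highest for Papln (9.62, next 8.01). Wild-type library 2 was lowest for Zfp968 (0.0568 CPM, next 2.18), and wild-type library 6 highest for Cxcl1 (10.9, next 1.40).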

How the results depend on the processing

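The count of 553 genes (84 higher) was 101 (1 higher) with only the 2 groups fitted, 2359 (1048) in limma voom, 976 (268) in DESeq2, 10 (4) on log2(normalized value + 1), 200 (14) with surrogate variables and 2241 (806) with composition covariates. It was 42 (11) with GC offsets, 52 (15) with GC and length offsets, 356 with GC offsets and covariates, 199 (14) without the 1 library over 3 MADs in GC trend, 14 (1) without knock-in libraries 3 and 4, and 0 (0) without 2, 3 and 4. Higher genes numbered 130 with RLE, 161 with upper-quartile scaling and 29 with no filter. Leaving out 1 library gave 153 to 855 genes, 11 to 257 of them higher, 4 to 89 with GC offsets, and a GC trend difference of 0.22 to 0.33. Same-numbered libraries had correlations of deviations from -0.281 to -0.00952 over 5 numbers, and 0 correlated best with its own number. With 5 shared numbers this check could not exclude that a replicate number marks a shared origin. With the replicate block 160 genes passed (10 higher), and with the block and GC offsets 3 (1). The count with GC offsets was 356 with covariates and 2 without knock-in libraries 3 and 4. Between ages, voom called 1044 genes for 9 months and DESeq2 1 for 17 months. The causes of these shifts were not tested. Signs reversed on log2(normalized value + 1) for Cbx3 (0.0273), Srsf1 (0.00576), Srsf7 (0.132), Canx (0.00806), Rab18 (0.0514), Rab2a (0.0185), Rap2c (0.0536) and Efemp1 (0.0230). Efemp1 was also above 0 with the block and GC offsets (0.0334), voom (0.0276), surrogate variables (0.0418) and GC and length offsets (0.00525), Cfb was -0.0434 and -0.0480 with GC and GC and length offsets, and Gm5537 -0.23 with surrogate variables. Of the other values of named genes, 357 under the alternatives and 131 with 1 library left out lost the call in the same direction. Whether counting depth limited the levels or calls was not tested.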

Other observations

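Genes with names of ubiquitin-conjugating enzymes, RING finger proteins and tripartite motif proteins (Ube2, Rnf and Trim), which attach ubiquitin to other proteins, were counted after their values were seen. Of 165, 13 were lower and 0 higher at an adjusted p under 0.05 (edgeR), against 2.61% lower over all genes. They included Ube2d3, Ube2e1, Ube2v2, Rnf138 and Rnf11. The median of the 165 was 0.02, and 1 of them, Rnf11, passed with GC offsets. Rnf11 ran from 93.5 to 102.5 CPM in wild type and from 41.2 to 76.3 CPM in knock-in, without overlap, and had log2 fold changes of -0.64 and, with the offsets, -0.43. Of 223 genes with a Tmem name, which encode membrane proteins of many roles, 10 were lower and 1 higher. Over all genes 2.61% were lower and 0.467% higher. With GC offsets 1 of the 223 was lower and 0 higher.

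The share of genes called rose with expression level. It was 0.881% of 2269 genes with a mean log2 CPM under 0, 2.26% of 3901 genes between 2 and 4, and 4.37% of 3478 genes at 6 and over. In the last class 136 genes were lower and 16 higher.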
